A study of Mus musculus with 4 samples.

Results

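The report covers 10 genes that report on or restrain signalling through the ERK branch of the MAPK pathway: Dusp4, Dusp5, Dusp6, Spry1, Spry2, Spry4, Spred1, Etv4, Etv5 and Phlda1. They were taken by symbol, and all 10 were among the 31053 genes of the count matrices. The data were single-cell RNA counts from the pancreas of wild-type C57BL/6 mice, with 1 library for each of 4 groups. C2D and C6W were taken 2 days and 6 weeks into recovery from caerulein, a peptide that drives acinar secretion to excess and thereby injures the pancreas. S2D and S6W were the saline groups of the same recovery times, which the labels call naive to inflammation. All 4 libraries held DAPI-negative sorted cells, and the labels used here give neither the age, the sex nor the number of animals behind a library. With 1 library a group nothing could be tested against variation between animals, so no p-value is given, and each interval (95%, exact) covers counting error only.

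ERK is activated at the end of a kinase cascade that growth factor receptors start through Ras and Raf. The cascade switches on genes that restrain it again. Dual-specificity phosphatases remove the activating phosphates from MAP kinases, while Sprouty and Spred proteins act further up, between the receptor and Raf. ERK also raises ETS factors of the PEA3 group, such as Etv4 and Etv5, and transcripts of this kind are widely read as a sign of pathway output. In the pancreas, ERK signalling is known for its part in the change of acinar cells towards duct-like cells after injury.

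After filtering, 4637 cells of C2D, 3308 of S2D, 2741 of C6W and 2017 of S6W were used, with median depths of 14051, 8324, 10541 and 10341 unique molecular identifiers (UMIs, counted molecules) per cell. The deposited matrices held 71547194, 36914373, 33788935 and 29145886 UMIs. Library pairs shared 0 to 10 cell barcodes after filtering. The cells fell into 33 clusters, named by marker genes as 18 classes, and 11 classes had at least 50 cells in some library. A class is called acinar-like or ductal-like because its name rests on markers. The clusters that hold a class differed between the libraries. In C2D the acinar-like cells made up clusters 4 and 6, whose leading genes held Reg genes and the keratin Krt18, with Krt8 and Cldn4 in cluster 6 only. Acinar-like cells of the other libraries lay mainly in cluster 32. Krt18 was the top gene of the ductal marker list in acinar-like cells of S2D, C6W and S6W too. Ductal-like cells of C2D lay mainly in cluster 18 and fibroblast-like cells of C2D in cluster 5. Macrophage-like cells were 2347 in C2D, 78 in S2D, 111 in C6W and 131 in S6W.

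RefSeq promoter windows (GRCm38.p6) were at hand for 6 of the 10 genes: Dusp5, Dusp6, Spry1, Spry2, Spred1 and Etv5. Dusp4, Spry4, Etv4 and Phlda1 had no entry. The 250 bases before the start are printed for Dusp5, Dusp6 and Spry1, because ratios of these genes recur below with many UMIs behind them. Each runs 5' to 3' on the gene's own strand, which is the plus strand for all 3, and capitals mark any match, on either strand, to 1 of 5 motifs. The motifs were CCGGAA (the core bound by ETS factors), TGACGTCA (the cyclic AMP response element), TGANTCA (AP-1), GGGCGG (the GC box) and TATAAA.
Dusp5, chr19:53528895-53529144: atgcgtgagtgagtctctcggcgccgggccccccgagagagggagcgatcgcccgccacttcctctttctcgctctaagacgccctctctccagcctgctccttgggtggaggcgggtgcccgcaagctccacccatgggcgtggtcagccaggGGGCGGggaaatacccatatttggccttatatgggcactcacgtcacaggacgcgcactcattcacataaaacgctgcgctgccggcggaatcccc
Dusp6, chr10:99262981-99263230: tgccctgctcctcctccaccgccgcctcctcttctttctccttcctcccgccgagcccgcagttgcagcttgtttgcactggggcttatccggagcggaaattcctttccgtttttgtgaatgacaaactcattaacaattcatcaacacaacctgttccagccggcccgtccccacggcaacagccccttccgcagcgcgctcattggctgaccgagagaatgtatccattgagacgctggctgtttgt
Spry1, chr3:37639697-37639946: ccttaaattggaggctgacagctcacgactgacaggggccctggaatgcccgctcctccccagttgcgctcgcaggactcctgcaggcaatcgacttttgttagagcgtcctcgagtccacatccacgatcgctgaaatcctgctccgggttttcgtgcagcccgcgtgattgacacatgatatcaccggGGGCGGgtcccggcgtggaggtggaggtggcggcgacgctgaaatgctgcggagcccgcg
The Dusp5 window held 1 GC box, which began 96 bases before the RefSeq start. The Spry1 window also held 1, which began 60 bases before the start. For Dusp5 the RefSeq start lies inside the gene position given below, so the last bases of its window fall within the gene. The Dusp6 window held none of the 5 motifs. Of 32851 promoter windows of the same length, 32.7% held a GC box, 12% the ETS core, 1.55% the cyclic AMP element, 6.75% the AP-1 motif and 12.4% TATAAA. Of the other windows, that of Spred1 held GC boxes and that of Spry2 held no motif. For Etv5 the window at chr16:22439571-22439820 held GC boxes, while that at chr16:22438369-22438618 held no motif. These are matches of letters and say nothing of binding.

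The first question was where each gene is read in the pancreas. Levels are in CPM of the UMIs outside digestive genes, with UMIs added up for each class and library, and 31 such sums were compared. Digestive transcripts, which lymphocytes should lack, averaged 56.7 UMIs per B-like or T-like cell in C2D, 194 in S2D, 98.4 in C6W and 117 in S6W, which is why they were left out of the scale. A level is compared between classes for 1 gene at a time, never between genes.

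**Figure D1:**
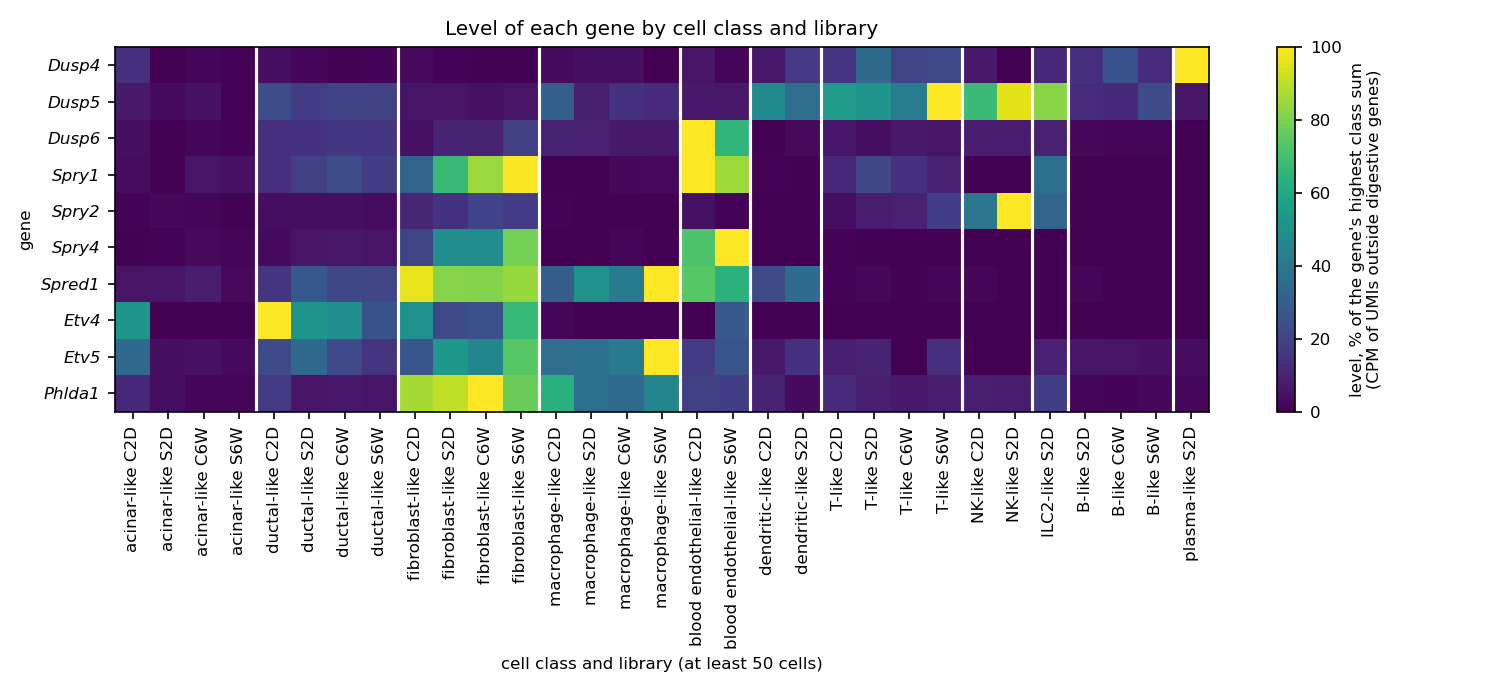
Level of each gene (rows) in each cell class and library (columns, at least 50 cells), as a percent of that gene's highest class sum, in CPM of the UMIs outside digestive genes. Spry1 and Spry4 were brightest in blood endothelial-like and fibroblast-like cells, Dusp6 in blood endothelial-like cells, Spry2 in NK-like cells, Dusp4 in plasma-like cells, and acinar-like cells were dark for most genes.

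Dusp4 (chr8:34807297-34819894, plus strand, GRCm38, as all gene positions here) encodes a nuclear phosphatase that is itself an early target of ERK. Its level was 115 (105 to 127) in plasma-like cells of S2D, from 414 UMIs, against 40 (29.5 to 53) in T-like cells of S2D, the next in order. Of the plasma-like cells, 78.8% had a Dusp4 UMI, against 1.02% of fibroblast-like cells of the same library. Their median depths were 33101 and 10814 UMIs, and at 1000 UMIs per cell the shares were 10.1% and 0%. In ductal-like and fibroblast-like cells Dusp4 ran from 0.620 to 4.72 over the 4 libraries, and in acinar-like cells from 0 in S2D to 16.2 in C2D.

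Dusp5 (chr19:53529109-53542431, plus) encodes a nuclear phosphatase specific for ERK. It was highest in T-like, NK-like and ILC2-like cells. These held 671 (596 to 754) in T-like cells of S6W, 643 (554 to 743) in NK-like cells of S2D and 553 (473 to 642) in ILC2-like cells of S2D, whose intervals overlap. The other lymphoid classes were lower, with 76.5 to 153 in B-like cells and 35.1 in plasma-like cells of S2D. Dendritic-like cells held 318 in C2D and 240 in S2D. Macrophage-like cells had 206 (201 to 211) in C2D, against 58.1 in S2D, and 98.8 in C6W, against 81.1 in S6W. Ductal-like cells held 122 to 158 over the 4 libraries. Fibroblast-like cells held 30.8 to 38.3 and acinar-like cells 6.29 to 49.4.

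Dusp6 (chr10:99263231-99267489, plus) encodes the cytoplasmic phosphatase that binds ERK. Blood endothelial-like cells had the highest levels, at 274 (240 to 312) in C2D and 181 (154 to 211) in S6W, the only libraries with at least 50 such cells. Fibroblast-like cells of S6W came next at 52.1, and ductal-like cells of all 4 libraries lay between 38.5 and 44.8, with intervals that overlap. Fibroblast-like cells of C2D, at 12.3, were below those of S2D at 27.6.

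Spry1 (chr3:37639947-37644598, plus), Spry2 (chr14:105891947-105896819, minus) and Spry4 (chr18:38586247-38601415, minus) encode Sprouty proteins, inhibitors of receptor tyrosine kinase signalling, and did not share a pattern. Spry1 was highest in blood endothelial-like cells of C2D (250) and fibroblast-like cells of S6W (248), whose intervals overlap. Spry4 was highest in the same classes, at 126 (104 to 152) in blood endothelial-like cells and 99.8 (93.6 to 106) in fibroblast-like cells of S6W. Spry4 had no UMI in NK-like cells of either 2-day library, nor in ILC2-like, plasma-like or dendritic-like cells of S2D. Spry2 was highest in NK-like cells, at 189 (147 to 240) in C2D and 483 (406 to 571) in S2D, followed by ILC2-like cells of S2D at 154. Of NK-like cells, 62.3% of C2D and 90.4% of S2D had a Spry2 UMI, against 0.661% of B-like cells of S2D. Median depths of these cells were 5664, 4893.5 and 6224 UMIs, and at 1000 UMIs per cell the shares were 20.8%, 37.3% and 0.267%. Spry1 had no UMI in the NK-like cells of either library.

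Spred1 (chr2:117121374-117182279, plus) encodes a relative of the Sprouty proteins that recruits neurofibromin to the membrane. Its highest sums were macrophage-like cells of S6W at 156 (135 to 180) and fibroblast-like cells of C2D at 151 (145 to 158), whose intervals overlap. Fibroblast-like cells of the other libraries lay between 127 and 132. In T-like, B-like and NK-like cells it stayed at or below 3.33.

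Etv4 (chr11:101769742-101785371, minus) and Etv5 (chr16:22381309-22439719, minus) encode ETS transcription factors. Etv4 was sparse, with 123 UMIs in C2D, 44 in S2D, 53 in C6W and 60 in S6W over all cells used. Its highest level was 8.02 (5.55 to 11.2) in ductal-like cells of C2D, and no lymphoid class held a UMI of it. The smaller lymphoid sums cannot show absence, as NK-like cells of S2D allow a level of up to 12.8 (upper end of the interval). Etv5 was highest in macrophage-like cells of S6W, at 34.3 (24.6 to 46.5), and in fibroblast-like cells of S6W, at 25.4 (22.3 to 28.8).

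Phlda1 (chr10:111506286-111508645, plus) encodes a pleckstrin homology-like protein whose transcript responds to growth factors. Fibroblast-like cells had the highest levels in every library, at 871 in C2D, 911 in S2D, 1005 in C6W and 778 in S6W. Macrophage-like cells followed, at 639 (630 to 648) in C2D, against 363 (317 to 412) in S2D, and 353 in C6W, against 457 in S6W. B-like cells lay between 11.5 and 21.4.

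At 2 days the acinar-like cells of C2D held 23 to 88 UMIs of Dusp4, Dusp6, Etv4 and Etv5, against 0 or 1 of each in S2D. Dusp4 had 88 UMIs in the 772 acinar-like cells of C2D and 0 in the 431 of S2D. Dusp6 had 59 UMIs in C2D and 0 in S2D. Etv4 had 23 UMIs in C2D and 0 in S2D. Etv5 had 64 UMIs in C2D and 1 in S2D. The 448 acinar-like cells of S6W held 1 UMI of Dusp4, 3 of Dusp6, 0 of Etv4 and 1 of Etv5. All are small numbers. In C2D, 45.9% of acinar-like UMIs came from digestive genes, against 87.4% in S2D. Outside digestive genes the acinar-like sums were 5445242 UMIs in C2D and 694524 in S2D, so S2D was also the shallower.

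Ratios between libraries were scaled by TMM totals, which centre most genes on no change, and 2-fold (1 on the log2 scale) was the size rule, for members with at least 20 UMIs over both libraries. A library with no UMI was given 3 counts, so that the ratio is a bound. By this scale Dusp4 was at least 3.25-fold higher in C2D and Dusp6 at least 2.18-fold, while the bound for Etv4 lay below 1 and says nothing of its direction. The log2 ratio of C2D over S2D was 2.83 (0.30 to 8.15) for Etv5. It was 1.42 (0.85 to 2.06) for Phlda1, from 605 UMIs in C2D and 25 in S2D. It was 1.2 (0.40 to 2.12) for Dusp5, from 269 UMIs in C2D and 13 in S2D. For Spry1 it was 2.32, from 45 UMIs in C2D and 1 in S2D, with an interval from -0.23 to 7.65 that holds no change, and against the 12 UMIs of S6W it was -0.98. Spred1 was at -0.27 (-1.50 to 1.25) and Spry2, with 22 UMIs in C2D and 7 in S2D, at -1.52 (-2.80 to -0.05). Spry2 turned to 0.78 with totals of all UMIs. Spry4 had 4 UMIs in C2D and 1 in S2D and was not compared.

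In acinar-like cells 6 of 9 members compared were at least 2-fold higher in C2D (Dusp4, Dusp5, Dusp6, Spry1, Etv5 and Phlda1) and Spry2 was at least 2-fold lower. Across all genes with at least 20 UMIs, 22.2% passed 2-fold upwards and 12.2% downwards, and at a minimum of 100 UMIs 21.6% and 11.3%. The median log2 ratio of the 9 members was 1.2, with bounds taken as values, and that of all genes was 0.19. Under plain CPM 8 of 9 were higher and 0 lower, but there the median of all genes also lay past 2-fold upwards. With S6W as control 5 were higher and 0 lower. The shares of all genes above belong to neither setting. All but Phlda1 reached 20 UMIs through C2D alone, so the count supports no direction. With 1000 UMIs drawn per cell Phlda1 alone was left to compare (1.60). After subtraction of expected free RNA no member kept a UMI in S2D, so each ratio was a bound. By these bounds 3 of 7 members (Dusp4, Dusp5 and Phlda1) were at least 2-fold higher. The bound for Spry1 (-0.10) says nothing of its direction.

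Free RNA (RNA outside cells, estimated from the digestive UMIs of lymphocytes) and macrophage transcripts were also gauged in these cells. The free RNA expected in the acinar-like cells of C2D was 3.02 UMIs for Dusp4, against 88 measured, 5.74 for Etv5, against 64, and 1.07 for Etv4, against 23. It was 13.6 for Dusp6, against 59, 91.9 for Dusp5, against 269, and 311 for Phlda1, against 605. For Spred1 it was 35.2, against 45 measured, and for Spry4 4.36, against 4. In S2D the expectation was above the measurement for all 10 genes, for instance 119 UMIs for Phlda1, against 25 measured, so the estimate ran high there. The macrophage marker list summed to 1137 CPM in acinar-like cells of C2D and to 202 in those of S2D, and 12 of its 16 genes were at least 2-fold higher in C2D. None of the 16 was at 0 in C2D, while Mrc1, Gpnmb, Fcgr3 and Trem2 were at 0 in S2D. The C2D sum was 1.45% of the list's level in macrophage-like cells of C2D, and Apoe made up 64.1% of it. Dusp4, Spry1 and Etv4 were lower in macrophage-like cells of C2D (3.26, 1.69 and 0.151 CPM) than in acinar-like cells of C2D (16.2, 8.26 and 4.22). Dusp5, Dusp6 and Phlda1 were higher in the macrophage-like cells (206, 26.6 and 639) than in the acinar-like cells (49.4, 10.8 and 111). Etv5 was nearly level, at 12.25 in macrophage-like and 11.75 in acinar-like cells.

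**Figure D2:**
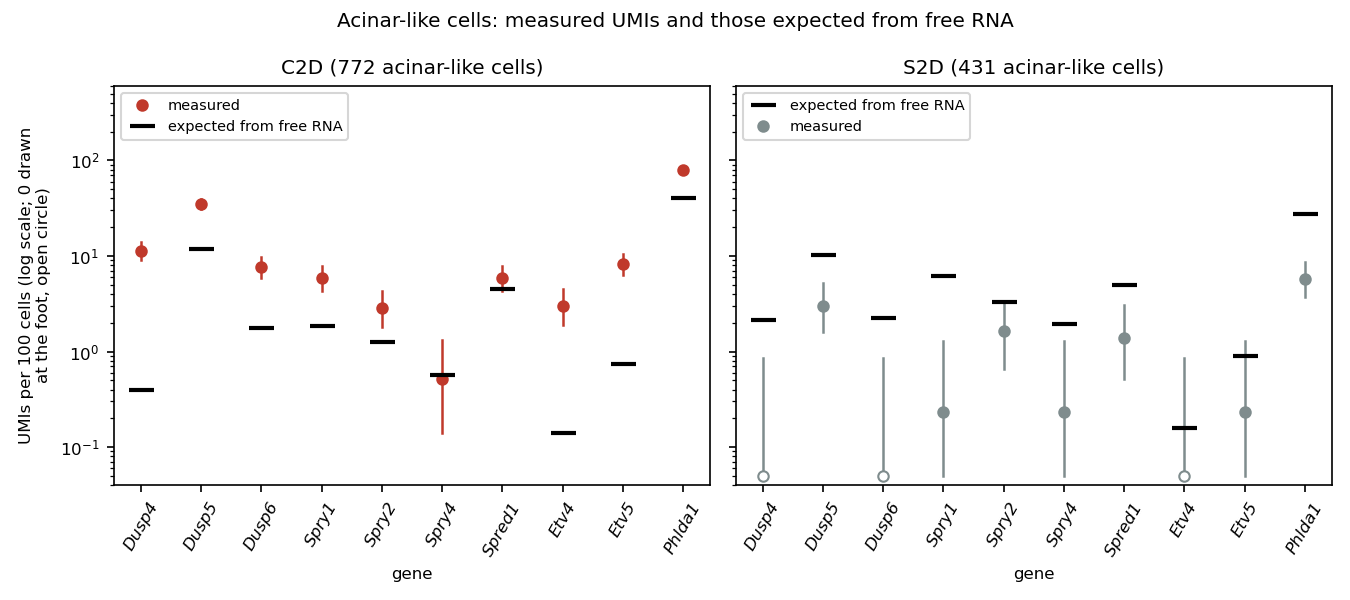
UMIs per 100 acinar-like cells of each gene (dots, with 95% Poisson intervals; log scale, 0 drawn open at the foot) beside the number expected from free RNA (black dashes), in C2D (left) and S2D (right). In C2D, Dusp4, Etv4 and Etv5 stood furthest above the dashes, as a ratio, and in S2D all 10 genes lay below them.

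Within C2D the 2 acinar-like clusters differed. Cluster 6, in which Krt8 and Cldn4 were among the leading genes, had a Dusp4 level of 22.8, against 4.14 in cluster 4. Phlda1 was at 131 in cluster 6 and 74.5 in cluster 4, and Dusp6 at 15.1 and 3.10. Etv5 was nearly level, at 11.4 in cluster 6 and 12.4 in cluster 4. Cluster 4 had the higher sum of macrophage markers, with 898 in cluster 6 and 1571 in cluster 4, while the dissociation list (genes that respond to tissue digestion) summed to 6444 in cluster 6 and 3520 in cluster 4. These genes took part in the clustering, so the difference is a description. The dissociation list shares Fos, Fosb, Junb, Egr1, Ier2 and Ier3 with the list of other ERK targets used below. It shares Dusp1 with the list of other inhibitors, so here and below it is not a measure of tissue digestion alone.

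**Figure D3:**
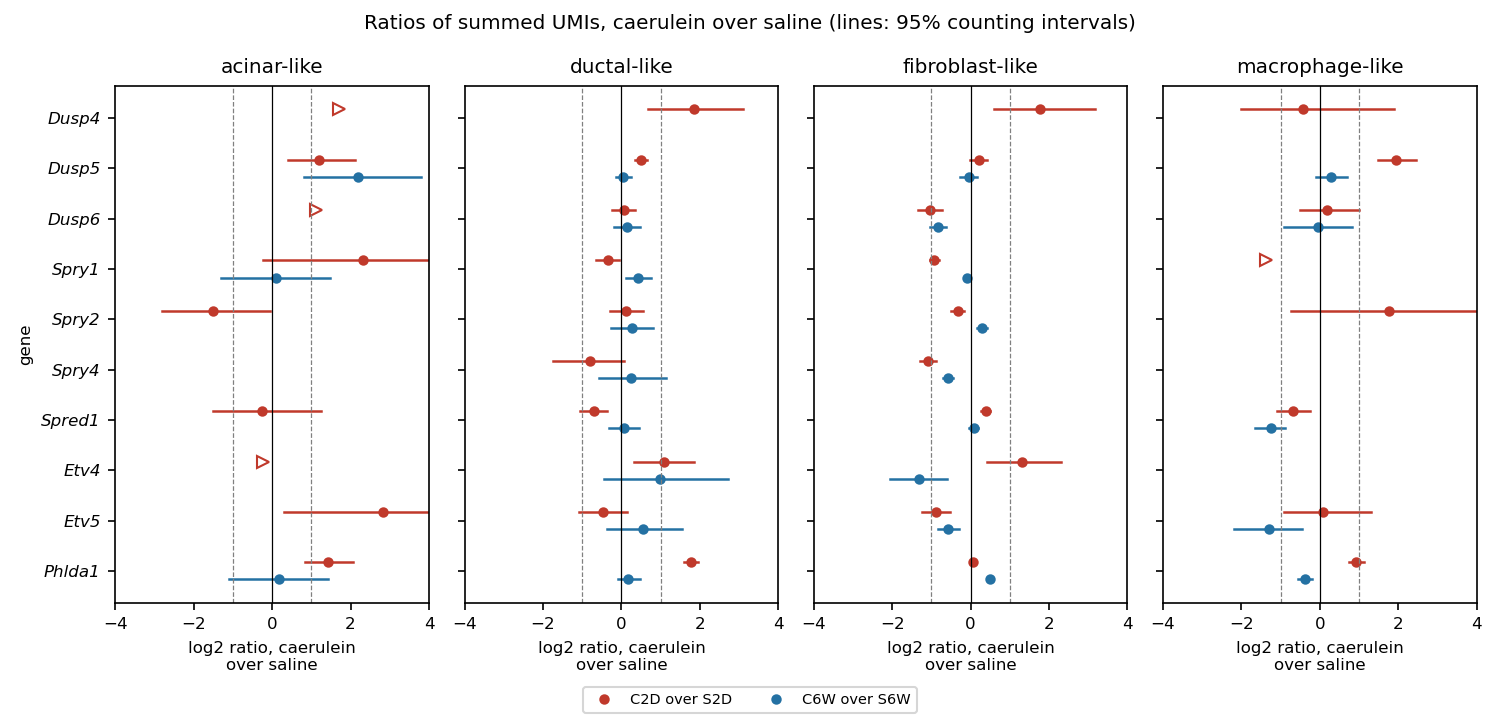
Log2 ratio of each gene in the 4 main classes, C2D over S2D (red) and C6W over S6W (blue), with 95% counting intervals, drawn only to 4 on either side. Open arrowheads are lower bounds, drawn without an interval where saline had no UMI, dashed lines mark 2-fold, and genes with under 20 UMIs are left out; most 6-week points lay inside the dashed lines.

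In ductal-like cells at 2 days Phlda1 stood out, with 716 UMIs in the 179 cells of C2D and 378 in the 797 cells of S2D. Its levels were 169 (157 to 182) CPM in C2D and 54 (48.7 to 59.7) in S2D, and the log2 ratio was 1.77 (1.59 to 1.96). Levels in C6W (64.9) and S6W (57.9) lay close to that of S2D. Dusp4, with 20 UMIs in C2D and 10 in S2D, was at 1.85 (0.69 to 3.11). Etv4, with 34 UMIs in C2D and 29 in S2D, was at 1.08 (0.32 to 1.85). The pathway phosphatases Dusp5 and Dusp6 were inside 2-fold, at 0.50 (0.35 to 0.65) and 0.05 (-0.23 to 0.34).

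The Sprouty and Spred genes were inside 2-fold in ductal-like cells. Spred1 was at -0.71 (-1.04 to -0.38), Spry4 at -0.80 (-1.74 to 0.07) and Spry1 at -0.35 (-0.64 to -0.06), while Spry2 was at 0.12 (-0.30 to 0.54). Etv5 was at -0.46 (-1.09 to 0.14). In all, 3 of 10 members were at least 2-fold higher and 0 lower, where 8.44% of all genes were higher and 8.52% lower (5.11% and 5.45% at 100 UMIs). The median log2 ratio was 0.09 for the members and -0.04 for all genes. With at least 100 UMIs, 1 of 7 members, Phlda1, was higher. The dissociation list summed to 14620 CPM in C2D and 22910 in S2D, and 2 of its 16 genes were at least 2-fold lower and 1 higher. The macrophage list summed to 2607 in C2D and 10460 in S2D, where Apoe made up 98.2% of it, and 9 of its 12 genes compared were at least 2-fold higher in C2D. Its part in the ductal-like ratios was not tested.

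Dusp5 divided the ductal-like clusters outside C2D. In cluster 29 it was at 32.9 CPM in C6W, 18.2 in S2D and 3.09 in S6W, the last from 2 UMIs. In cluster 30 it was at 151 in C6W, 131 in S2D and 150 in S6W, and in cluster 31 at 192 in C6W and 199 in S2D. The dissociation list moved with it, from 4093 to 7662 CPM in cluster 29 and from 25120 to 32290 in clusters 30 and 31, and its part in the difference was not tested. Spry4 was also higher in cluster 30 (10.01 to 11.95) than in cluster 29 (0 to 2.35), with 4.42 to 5.85 in cluster 31. Its cluster 29 levels rest on 4 UMIs in S2D, 1 in C6W and 0 in S6W. Spred1 overlapped, at 30.8 to 38.8 in cluster 29 and 31.8 to 51.6 in cluster 30. The clusters were drawn from the same counts, so these differences are a description.

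In fibroblast-like cells at 2 days Spry4 and Dusp6 were at least 2-fold lower in C2D, and Spry1 was just inside 2-fold. Spry1 had 1100 UMIs in the 586 cells of C2D and 1223 in the 685 cells of S2D, levels of 80.6 (75.9 to 85.5) in C2D and 168 (159 to 178) in S2D, with a log2 ratio of -0.93 (-1.05 to -0.81). The Spry4 levels were 26.5 CPM (C2D) and 61.9 CPM (S2D), with a log2 ratio of -1.08 (-1.29 to -0.88). Dusp6 was at 12.3 in C2D and 27.6 in S2D, with a log2 ratio of -1.03 (-1.33 to -0.72). All 3 were lower in C2D than in either saline library and than in C6W. Etv5 was at -0.89 (-1.25 to -0.52) and Spry2 at -0.33 (-0.50 to -0.17).

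Not every member was lower in these cells. Spred1, with 2064 UMIs in C2D and 927 in S2D, was at 0.38 (0.27 to 0.49). Phlda1, with 11879 UMIs in C2D and 6609 in S2D, was at 0.07 (0.03 to 0.11), and Dusp5 at 0.20 (-0.01 to 0.42). Dusp4, with 41 UMIs in C2D and 7 in S2D, was at 1.78 (0.60 to 3.18). Etv4, with 55 UMIs in C2D and 13 in S2D, was at 1.31 (0.42 to 2.30), but the 52 UMIs of S6W turned its ratio to -0.29 (-0.87 to 0.28) when that library served as control. In all, 2 of 10 members were at least 2-fold higher and 2 lower, where 12.3% of all genes were higher and 8.26% lower (9.44% and 5.6% at 100 UMIs). The median was -0.13 for the members and 0.04 for all genes. Of 8 members with at least 100 UMIs, 0 were at least 2-fold higher and 2 lower. The number lower became 4 under plain CPM, with totals that leave out digestive genes and with S6W as control. The shares of all genes given are not those of these settings, so the 4 have no background beside them.

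The make-up of the class differed with the level. In S2D, 410 of the fibroblast-like cells lay in cluster 17, led by Smoc2 among others, and 238 in cluster 13, led by Pi16 among others. In C2D, 539 lay in cluster 5, with 4 in cluster 17 and 17 in cluster 13. Spry1 was at 80.4 CPM in cluster 5 of C2D, against 243 in cluster 17 and 58.2 in cluster 13 of S2D. Spry4 was at 26.7 in cluster 5 of C2D, against 102 in cluster 17 and 10.1 in cluster 13 of S2D. Dusp6 was at 12 in cluster 5 of C2D, against 37.8 and 12.8 in clusters 17 and 13 of S2D. The C2D values of all 3 lay below cluster 17, with Dusp6 near cluster 13 and Spry1 and Spry4 above it. Spred1 varied little, at 156 in cluster 5, 136 in cluster 17 and 123 in cluster 13.

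The dissociation list also moved with these ratios. It summed to 18550 CPM in fibroblast-like cells of C2D and 37150 in those of S2D, and 5 of its 16 genes were at least 2-fold lower and 1 higher in C2D, with a median log2 ratio of -0.80. Between clusters 17 and 13 of S2D the list differed little, at 39070 and 35660. Median depth per cell was 22576 UMIs in C2D and 10814 in S2D. The macrophage list summed to 2070 in C2D and 1640 in S2D, with 12 of 16 genes at least 2-fold higher in C2D and Ms4a7 and Trem2 at 0 in S2D. The part of these measures in the ratios was not tested.

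**Figure D4:**
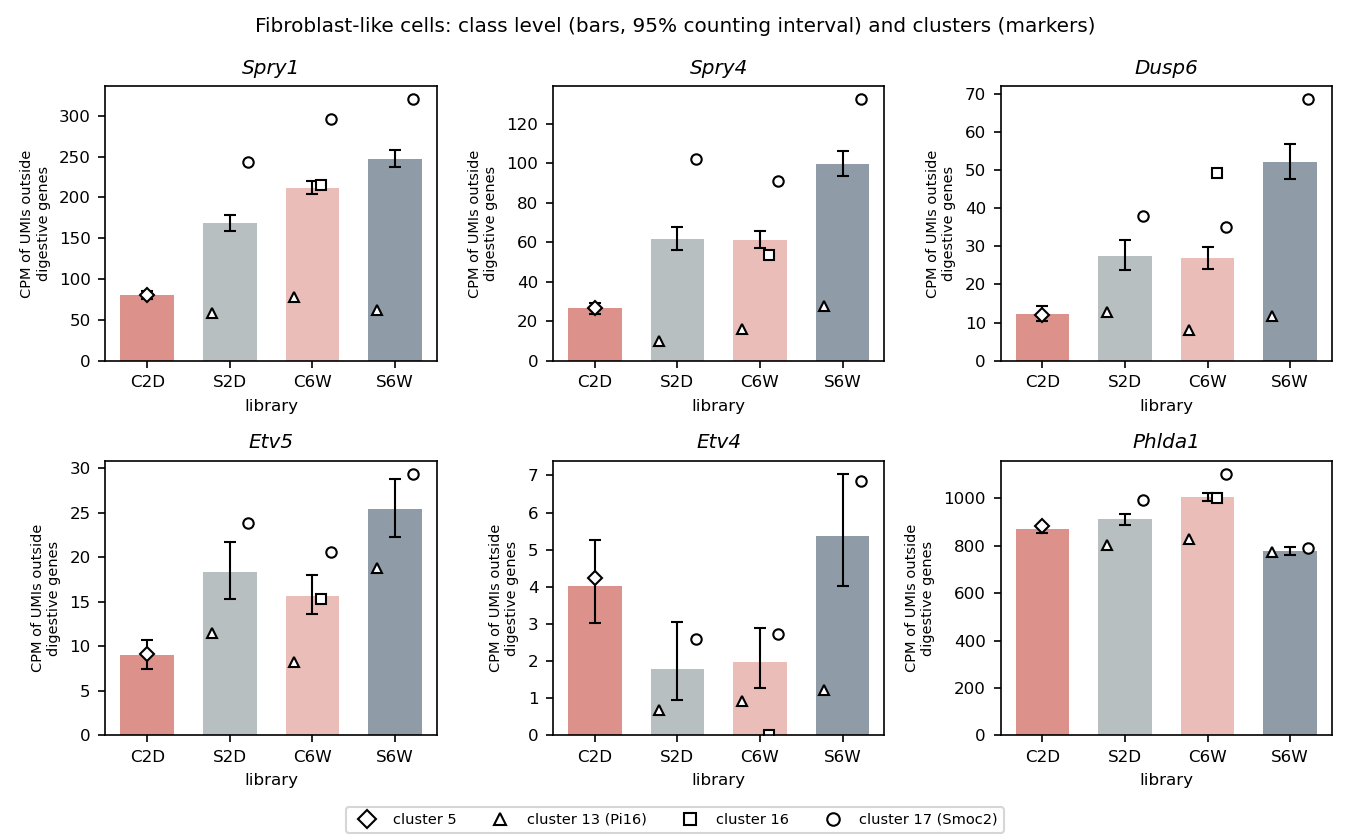
Levels of 6 genes in fibroblast-like cells by library, in CPM of the UMIs outside digestive genes, as bars with 95% Poisson intervals, with the level in each cluster of at least 50 cells as markers. Spry1, Spry4 and Dusp6 were lowest in C2D, cluster 17 lay above cluster 13 in each library that held both, and S6W was the higher of the 2 saline libraries for Spry1, Spry4, Dusp6, Etv5 and Etv4.

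In macrophage-like cells at 2 days Dusp5 and Spry2 were at least 2-fold higher, Spry2 on 1 UMI in S2D. Dusp5 had 6834 UMIs in the 2347 cells of C2D and 37 in the 78 cells of S2D, with a log2 ratio of 1.94 (1.48 to 2.45). Phlda1 was at 0.93 (0.74 to 1.12), just inside 2-fold, and Dusp4, with 108 UMIs in C2D and 3 in S2D, at -0.42 (-2.0 to 1.88). Spred1, with 1524 UMIs in C2D and 51 in S2D, was at -0.69 (-1.09 to -0.26). Dusp6 was at 0.19 (-0.51 to 1.01) and Etv5 at 0.08 (-0.92 to 1.30). Spry2, with 163 UMIs in C2D and 1 in S2D, was at 1.76, with an interval from -0.74 to 7.07. Spry1 had 56 UMIs in C2D and 0 in S2D, and its bound says nothing of its direction.

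Of 8 members compared in macrophage-like cells, 2 (Dusp5 and Spry2) were at least 2-fold higher and 0 lower, where 11.6% of all genes were higher and 11.5% lower (14.5% and 6.65% at 100 UMIs). The median over S2D was 0.14 for the members and 0.00 for all genes. With S6W as control 1 member was higher and 3 lower, among them Spred1 at -1.65 and Etv5 at -1.37. The shares of all genes given are those over S2D, so these counts have no background beside them. Within C2D, Dusp5 was at 252 CPM in cluster 1, 191 in cluster 9 and 144 in cluster 3, the cluster led by Gpnmb among others. Phlda1 took the same lead in cluster 1, at 760, against 489 in cluster 3. Dusp6 ran the other way, at 18.2 in cluster 1 and 39.3 in cluster 3. In cluster 25, which held most macrophage-like cells of the other libraries, Dusp5 lay between 11.2 and 56.6 and Phlda1 between 460 and 491. Of the 37 Dusp5 UMIs of S2D, 5 came from the 53 cells of cluster 25, and the rest from its other macrophage-like cells. So the make-up of the class differed along with the Dusp5 ratio, and its part was not tested. The dissociation list summed to 12280 CPM in C2D and 17790 in S2D, with 8 of 16 genes at least 2-fold lower and 2 higher in C2D, and its part in the ratios was not tested.

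In the other immune classes 1 or 2 members each were past 2-fold. In NK-like cells Spry2, with 69 UMIs in C2D and 139 in S2D, was at -1.23 (-1.67 to -0.81), while Dusp5 was at -0.37 (-0.68 to -0.06). In T-like cells Dusp4 (12 UMIs in C2D and 48 in S2D) was at -1.24 (-2.29 to -0.31) and Spry2 (12 and 47) at -1.21 (-2.26 to -0.27), whereas Dusp5 was at 0.04 (-0.19 to 0.27). In dendritic-like cells Phlda1 (445 UMIs in C2D and 28 in S2D) was at 1.97 (1.42 to 2.58), Dusp5 at 0.61 (0.41 to 0.81) and Dusp4 (35 and 19) at -1.13 (-1.98 to -0.25). So 1 of 3 members in NK-like, 2 of 6 in T-like and 1 of 4 in dendritic-like cells were at least 2-fold lower, and 1 in dendritic-like cells higher. Of all genes, 5.49% were at least 2-fold lower and 5.24% higher in NK-like cells, 6.58% and 3.83% in T-like cells, and 5.38% and 8.57% in dendritic-like cells. With S6W as control Dusp4 in T-like cells was at -0.61. The Dusp4 UMIs of S2D came from 23 T-like and 5 dendritic-like cells. The macrophage list summed to 2101 CPM in C2D and 291 in S2D in T-like cells (9 of 10 genes compared at least 2-fold higher), 631 and 90.4 in NK-like cells (1 of 2) and 1777 and 688 in dendritic-like cells (11 of 15). The dissociation list summed to 8203 in C2D and 11280 in S2D in T-like cells (6 of 16 genes lower, 1 higher), and to 8660 and 13780 in NK-like cells (7 of 15 lower, 0 higher). Their part in the ratios was not tested.

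The 6-week comparison asked what was left after recovery. In ductal-like cells all 9 members compared lay inside 2-fold, from 0.05 (-0.14 to 0.23) for Dusp5 to 0.98 (-0.43 to 2.72) for Etv4, and none was at least 2-fold higher or lower. Spry1, with 380 UMIs in the 569 cells of C6W and 111 in the 230 cells of S6W, was at 0.43 (0.12 to 0.75). Phlda1, 3.41-fold higher at 2 days, was at 0.18 (-0.10 to 0.47). Across all genes 2.46% passed 2-fold upwards and 0.73% downwards (0.301% and 0.0963% at 100 UMIs), with medians of 0.24 for the members and 0.02 for all genes. Dusp4 had 5 UMIs in C6W and 3 in S6W and was not compared.

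In fibroblast-like cells at 6 weeks Etv4 was the only member past 2-fold. It had 26 UMIs in the 1110 cells of C6W and 52 in the 741 cells of S6W, with a log2 ratio of -1.32 (-2.06 to -0.61). Dusp6 was at -0.83 (-1.03 to -0.63), Spry4 at -0.57 (-0.71 to -0.44) and Etv5 at -0.57 (-0.84 to -0.29). Phlda1 was at 0.50 (0.46 to 0.54), Spry2 at 0.29 (0.16 to 0.42), Spry1 at -0.10 (-0.17 to -0.02), Spred1 at 0.07 (-0.03 to 0.18) and Dusp5 at -0.05 (-0.26 to 0.16). Across all genes 2.03% passed 2-fold upwards and 1.65% downwards (0.658% and 0.668% at 100 UMIs), and 0 of 9 members were higher and 1 lower.

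The 2 saline libraries also differed in these genes, and against S2D none of 9 members in fibroblast-like cells of C6W was past 2-fold. In fibroblast-like cells S6W over S2D gave 1.59 (0.69 to 2.59) for Etv4, 0.92 (0.68 to 1.17) for Dusp6, 0.69 (0.53 to 0.86) for Spry4, 0.56 (0.46 to 0.66) for Spry1 and 0.47 (0.16 to 0.79) for Etv5. With S2D as control, C6W was at 0.26 for Etv4, 0.08 for Dusp6, 0.11 for Spry4 and -0.10 for Etv5. S6W over S2D had 1 of 9 members at least 2-fold higher and 0 lower, where 1.64% of all genes were higher and 2.06% lower. In ductal-like cells the saline libraries differed by -1.14 (-2.11 to -0.28) for Etv5 and -1.02 (-2.74 to 0.37) for Etv4, so 2 of 9 members were at least 2-fold lower in S6W and 0 higher, where 2.91% of all genes were lower and 1.01% higher. Within cluster 17 the order held, with Dusp6 at 35.1 CPM in C6W and 68.6 in S6W, and 37.8 in S2D.

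In macrophage-like cells at 6 weeks Spred1 and Etv5 were at least 2-fold lower, by the same pattern of controls. Spred1 had 84 UMIs in the 111 cells of C6W and 187 in the 131 cells of S6W, at -1.26 (-1.65 to -0.88), and Etv5 had 18 in C6W and 41 in S6W, at -1.29 (-2.18 to -0.46). S6W over S2D was 1.01 (0.55 to 1.48) for Spred1 and 1.49 (0.38 to 2.79) for Etv5. Against S2D, C6W was at -0.27 for Spred1 and 0.18 for Etv5. Of 5 members compared 2 were lower and 0 higher, where 6.8% of all genes were lower and 5.81% higher (5.52% and 3.07% at 100 UMIs), with a median of -0.37 for the members. The dissociation list summed to 15260 in C6W and 21730 in S6W, and its part was not tested. For S6W over S2D, 2 of 5 members were higher and 0 lower, where 8.13% of all genes were higher and 4.04% lower.

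In acinar-like cells at 6 weeks 3 members had 20 UMIs, and Dusp5 was at 2.19 (0.81 to 3.80), from 19 UMIs in C6W and 6 in S6W, below the 27.1 and 12.7 expected from free RNA. Against S2D it was at 0.70 (-0.39 to 1.84). Of these, 7 in C6W and 2 in S6W came from cluster 32, and the rest from acinar-like cells in other clusters. Spry1 was at 0.11 (-1.32 to 1.48) and Phlda1 at 0.18 (-1.11 to 1.42). So 1 of 3 members was at least 2-fold higher and 0 lower, where 6.33% of all genes were higher and 5.53% lower (2.3% and 1.22% at 100 UMIs). In C6W, Dusp4 and Etv5 had 1 UMI each in the 363 acinar-like cells, and Etv4 had 0, which allows a level of up to 6.18 (upper end of the interval).

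In T-like cells at 6 weeks Dusp5 was lower, with 321 UMIs in the 142 cells of C6W and 287 in the 58 cells of S6W, at -1.15 (-1.38 to -0.91). In B-like cells Dusp5 was at -0.97 (-1.28 to -0.67) and Dusp4 at 1.03 (0.25 to 1.89), from 66 UMIs in C6W and 17 in S6W. S6W over S2D gave 0.99 (0.77 to 1.21) for Dusp5 in T-like and 0.85 (0.60 to 1.10) in B-like cells. So 1 of 6 members in T-like cells was lower and 1 of 3 in B-like cells higher, where 3.33% of all genes in T-like cells were lower and 6.65% higher, and 1.84% and 4.27% in B-like cells.

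Around these genes, 5 fixed lists covered the rest of the pathway. The kinase core, from Grb2 to the RSK kinases, had few genes past 2-fold. At 2 days 1 of 18 genes was at least 2-fold higher in ductal-like, 0 of 17 in fibroblast-like and 3 of 18 in macrophage-like cells, and 1 each was lower in ductal-like and macrophage-like cells. The median log2 ratios were -0.16 in ductal-like, 0.00 in fibroblast-like and 0.27 in macrophage-like cells. Among ligands, 4 of 8 were at least 2-fold higher in acinar-like cells of C2D, where Hbegf, an activator of the EGF receptor, had 595 UMIs in C2D and 13 in S2D, at 2.34 (1.56 to 3.26). Egf had 15 UMIs in C2D and 62 in S2D, at -5.22 (-6.14 to -4.39). Hbegf reached the UMI minimum through C2D alone and Egf through S2D alone. The acinar-like ligand count therefore supports no direction, as for the members. In fibroblast-like cells 4 of 11 ligands were higher, among them Areg at 3.90 (2.64 to 5.55) and Nrg1 at 3.76 (2.50 to 5.41), and Fgf10 was lower at -2.04 (-2.42 to -1.67). In ductal-like cells Pdgfb, with 581 UMIs in C2D and 94 in S2D, was at 3.48 (3.16 to 3.81).

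Genes of the receptor and inhibitor lists passed 2-fold in both directions. In ductal-like cells 4 of 12 receptors were at least 2-fold lower in C2D, among them Erbb4 at -1.70 and Fgfr3 at -1.12, and 1 higher. Egfr was at -1.17 (-1.30 to -1.04) in fibroblast-like cells. Of the other inhibitors, Dusp10, a phosphatase that prefers p38 and JNK, was at 2.39 (1.14 to 4.02) in acinar-like and 1.71 (1.48 to 1.95) in ductal-like cells. Dusp2, a phosphatase known from immune cells, was at 2.36 in fibroblast-like and 1.77 in macrophage-like cells. Its UMIs in C2D were 14735 in macrophage-like and 185 in fibroblast-like cells, with 21 in fibroblast-like cells of S2D. The macrophage marker Csf1r had 234 UMIs in fibroblast-like cells of C2D and 9 in S2D. The part of free or macrophage RNA in the fibroblast-like Dusp2 ratio was not tested. In counts, 4 of 17 other inhibitors were higher and 1 lower in acinar-like, 4 of 19 and 0 in ductal-like, 2 of 18 and 1 in fibroblast-like, and 3 of 16 and 0 in macrophage-like cells. Of the other ERK targets 7 of 22 were higher and 2 lower in acinar-like cells, where Fosl1, an AP-1 subunit, had 129 UMIs in C2D and 1 in S2D, at 3.84 (1.33 to 9.15). The same counts were 5 of 25 and 2 in ductal-like, 6 of 25 and 3 in fibroblast-like, and 4 of 25 and 7 in macrophage-like cells. Fosl1 was at 1.89 (1.65 to 2.13) in ductal-like cells, and Plaur, the urokinase receptor, at 1.87 there and 2.42 in fibroblast-like cells. The genes printed are among the 4 with the largest absolute ratio of their list and class, not always the largest. The shares of all genes given above are the background of these counts. In acinar-like cells Fosl1 reached the UMI minimum through C2D alone, and S2D was the shallower library there. So the acinar-like counts of other inhibitors and other ERK targets support no direction.

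At 6 weeks 1 of 18 other inhibitors was past 2-fold in ductal-like cells, and no gene of the other 4 lists was. In macrophage-like cells 5 of 21 other ERK targets and 3 of 6 ligands were lower in C6W, among them Hbegf, with 70 UMIs in C6W and 287 in S6W, at -2.14 (-2.54 to -1.76). Against S2D, 1 of 19 targets was lower and 2 higher and 2 of 5 ligands lower and 1 higher, with Hbegf at -1.01. Emp1, an ERK target on the list, was at -1.79 over S6W and 1.18 over S2D. In fibroblast-like cells Ccnd1, a cyclin raised by growth factors, was at -2.38 (-2.86 to -1.92) at 6 weeks, with 48 UMIs in C6W and 200 in S6W, and at -2.72 (-3.26 to -2.20) at 2 days.

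Across the 31 class sums the 10 genes did not vary as 1 group. Of the 45 pairs, 10 had a Pearson correlation over 0.5 and 16 were below 0, with a median of 0.355, on log2 levels with a pseudocount of 10. Sums of 1 library share their depth and those of 1 class their cell type, so no p-value is given. Spry1 and Spry4 were the closest pair (0.845), then Spred1 and Etv5 (0.816) and Etv5 and Phlda1 (0.764). Dusp6 correlated with Spry1 at 0.696 and with Spry4 at 0.690. The genes outside the group with the pattern closest to a member were Smtn for Spry4 (0.983), Itpripl2 for Spred1 (0.962), Ecm1 for Phlda1 (0.910), Crim1 for Dusp6 (0.907), Rgs2 for Dusp5 (0.905) and Acyp2 for Spry1 (0.904). For Etv4, Spry2, Etv5 and Dusp4 they were Capn6 (0.884), Zfp275 (0.881), Olfr920 (0.880) and Tmem154 (0.80). They were chosen as the highest of all genes, so the values are a description.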

How the data were processed

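Single-cell RNA from whole mouse pancreas was measured in 4 libraries (C2D, S2D, C6W and S6W). The authors deposited raw counts of UMIs for every gene and barcode. Per the submitters' processing notes, the tools were FastQC and Cell Ranger 3.0.2, and the build mm10. Barcodes were kept from 500 UMIs and 200 genes upwards, with mitochondrial UMIs of at most 20%, and Scrublet doublets were left out (19 in C2D, 38 in S2D, 32 in C6W and 15 in S6W). That is a low number for C2D, so an alternative used 0.8% per 1000 barcodes. Cells were clustered with scanpy 1.11.5 (2000 variable genes, 40 components, 15 neighbours, Leiden resolution 1, no integration) and clusters were named from marker lists. Counting digestive genes as acinar markers in this naming was chosen after seeing the data and bears on the name of the acinar-like clusters of C2D. The digestive UMIs of B-like and T-like cells served to estimate free RNA, which the values given leave in place.

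UMIs were summed per class and library, in classes with at least 50 cells in both libraries. Log2 ratios used TMM totals (edgeR 4.0.16, R 4.3.3) and exact conditional binomial intervals, levels exact Poisson intervals and shares Clopper-Pearson intervals, at 95%. Members needed 20 UMIs over both libraries, and all genes are given at minimums of 20 and 100. Genes at 0 in a library were given 3 counts over the group. The ratio and its interval were tested on simulated counts, drawn as independent Poisson counts from the fibroblast-like sums of C2D and S2D. Such counts carry no spread between cells or animals, so the test checks the computation only. All 10 members were computed in each class, and the text gives the ratios its counts turn on. From each fixed pathway list the genes named are among the 4 with the largest absolute ratios in a class. Alternatives were plain CPM, size factors from DESeq2 1.42.0, totals that leave out digestive genes, a minimum of 100 UMIs, cells thinned to 1000 UMIs, subtraction of free RNA, at least 1000 UMIs and at most 10% mitochondrial UMIs per cell, doublets kept, doublets by expected rate, Leiden resolution 0.5 and the other saline library as control (for C2D chosen after seeing the data). The members and lists were chosen with earlier results of these data known. Gene positions came from GENCODE vM21 by Ensembl identifier. The kinase core in acinar-like cells is not reported here.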

Additional observations from a re-analysis of the deposited data

Results flagged for a closer look

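In several members, log2 ratios of a caerulein library over a saline library had opposite signs in 2 classes or at 2 times, each past 2-fold with an interval or bound off 0. Every value is a difference of 2 log2 ratios, was not tested over animals, and rests on 1 library a group. For Dusp4 at 2 days, T-like cells were at -1.24 and dendritic-like cells at -1.13, and with S6W as control T-like cells were at -0.61, inside 2-fold. The share of cells with a Dusp4 UMI was 11% in C2D and 12.6% in S2D for T-like cells. For dendritic-like cells it was 7.88% and 7.81%. The S2D UMIs came from 23 T-like and 5 dendritic-like cells, and the intervals take each UMI as independent. The ratio in ductal-like cells (1.85) was 3.09 above that in T-like and 2.98 above that in dendritic-like cells. The ratio in fibroblast-like cells (1.78) was 3.02 and 2.91 above them, and the bound in acinar-like cells (1.70) 2.94 and 2.84 above them. For Dusp6 at 2 days, the bound in acinar-like cells (1.12) was 2.15 above the ratio in fibroblast-like cells (-1.03). Both acinar-like bounds come from genes with 0 UMIs in S2D that passed the minimum through C2D alone, so they are values only and support no direction. For Dusp5 at 6 weeks, the ratio in acinar-like cells (2.19, from 19 UMIs in C6W and 6 in S6W) was 3.34 above that in T-like cells (-1.15). With S2D as control these were at 0.70 and -0.15, both inside 2-fold, and the 19 UMIs lie below the 27.1 expected from free RNA. For Etv4 in fibroblast-like cells, the 2-day ratio (1.31) was 2.62 above the 6-week ratio (-1.32), and both ratios turned sign when the other saline library was the control.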

How the results depend on the processing

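No paired analysis was possible because each group is 1 library. Of the alternative values of single members, 509 stayed inside the counting interval of the reported value, 77 left it in the same direction or without a call, and 6 turned sign from a value past 2-fold. These were Spry2 in acinar-like cells at 2 days (0.78 under plain CPM and 0.57 with S6W as control), Spry1 there (-0.98 with S6W as control), Etv4 in fibroblast-like cells (-0.29 at 2 days with S6W as control, 0.26 at 6 weeks with S2D as control) and Etv5 in macrophage-like cells at 6 weeks (0.18 with S2D as control). The cause was not tested. The counts of members at least 2-fold higher at 2 days moved as follows. Apart from the minimum of 100 UMIs, the shares of all genes given above do not belong to these alternatives. In acinar-like cells 6 became 1 with cells thinned, 3 with free RNA subtracted and 2 at a minimum of 100 UMIs, which leave 1, 7 and 2 members to compare, and 8 under plain CPM, 5 with doublets by expected rate and 5 with S6W as control. In ductal-like cells 3 became 1 with cells thinned and 1 at the minimum of 100, and 2 under plain CPM, with totals that leave out digestive genes and with free RNA subtracted. In fibroblast-like cells 2 became 0 with cells thinned and at the minimum of 100, and 1 with doublets kept or S6W as control. In macrophage-like cells 2 became 1 with free RNA subtracted, with doublets kept, with doublets by expected rate and with S6W as control. At 6 weeks the 1 call in fibroblast-like cells became 0 with cells thinned, at the minimum of 100 and with S2D as control. The 2 calls in macrophage-like cells became 0 with cells thinned and with S2D as control, and 1 at the minimum of 100. Acinar-like cells at 6 weeks gave no value with cells thinned, free RNA subtracted or the minimum of 100, since no member was left to compare. Plain CPM, which counts digestive UMIs in the totals, moved the acinar-like median at 2 days to 3.50 for the members and 2.49 for all genes, against 0.19 for all genes in the reported values. Depth limits the acinar-like comparisons, with 694524 UMIs outside digestive genes in S2D.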
